A study of Mus musculus with 2 samples.

Results

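Scavenger and phagocytic receptors were described in the control RNA-Seq of bone marrow-derived macrophages (BMDMs) as 10 genes chosen by symbol, namely *Msr1*, *Marco*, *Cd36*, *Scarb1*, *Cd68*, *Mrc1*, *Cd163*, *Olr1*, *Mertk* and *Axl*. Each symbol matched 1 row of the 37451 genes in the table of expression values. The members were chosen for their function and not for their values, though earlier results of these data were known. WT and ΔM BMDMs gave 1 library each. Both came from C57BL/6 mice of 7 to 9 weeks, and the WT animals were littermates. The ΔM mice were TTP fl/fl LysMCre, so that the gene of the mRNA-destabilizing protein tristetraprolin (TTP, gene name *Zfp36*) was deleted in myeloid cells, where the lysozyme M gene that drives Cre is active. Whether the WT littermates carried the floxed allele or Cre, and how many mice gave each library, is not given in the sources used here. Bone marrow was grown in CSF-1 from L929 cells, and all cells received 100 μM 4-thiouridine for 16 h and 10 ng/ml LPS for 6 h. The 6 h come from the treatment protocol, whereas both library titles end in LPS7, a 7 that no source used here explains. Neither of these libraries was of unstimulated cells, so all values are levels after LPS and not responses to it.

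Scavenger receptors are surface or endosomal proteins that bind modified lipoproteins, microbial polymers and cell debris, and carry them into the cell. Phagocytic receptors of the TAM family recognize dying cells through bridging proteins that hold on to exposed phosphatidylserine. In macrophages both groups serve clearance of particles and lipids, and their levels differ widely between resident, inflammatory and repair-associated cells.

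With 1 library per genotype there were no replicates, so no difference had a replicate check and no p-value was calculated. The paper also compared WT and ΔM macrophages in separate, replicated libraries, with and without LPS, which were not used here. Values are FPKMs, that is, mapped fragments set against the length of a gene's exons and the size of the library. The intervals given with them are approximate 95% Poisson intervals, which cover counting error only. They rest on about 36600000 fragments in WT and 32600000 in ΔM, estimated from the steps between low FPKMs. A log2 ratio was calculated as ΔM to WT after adding 1 FPKM to both values, and a gene that averaged at least 1 FPKM was taken as tested, meaning only that its ratio entered the counts. This left 10765 genes, of which 8078 were protein-coding, with median log2 ratios of 0.03 and 0, respectively. The targeted gene *Zfp36* was at 65.26 FPKM in WT (63.2 to 67.4) and at 16.71 FPKM in ΔM (15.6 to 17.9). Its log2 ratio was -1.90. The source of the *Zfp36* signal that remained in ΔM was not tested. The macrophage markers *Csf1r*, *Emr1*, *Itgam*, *Cd14* and *Fcgr1* were each above 100 FPKM in both libraries. The 7 macrophage markers summed to 3680 FPKM in WT against 2510 FPKM in ΔM. Most of that difference lay in *Lyz2*, the gene of the locus that carries Cre, at 2480.86 FPKM in WT against 1356.26 FPKM in ΔM. *Lyz1* was also lower, at 64.44 FPKM in WT against 40.24 FPKM in ΔM. *Lyz2* shares sequence with *Lyz1*, and reads without a unique position were discarded, so both levels may be too low.

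The receptors spanned a wide range of levels, and most of their RNA came from a few of them (the plot of levels by library). Per length, the order in WT was *Cd68*, *Msr1*, *Axl*, *Cd36*, *Scarb1*, *Mrc1*, *Marco*, *Mertk*, *Olr1* and *Cd163*. In ΔM the order differed in 1 place, where *Mertk* stood above *Marco*. Only the counting intervals of the lowest neighbours, *Olr1* and *Cd163*, overlapped in either library. The members summed to 755 FPKM in WT against 672 FPKM in ΔM. *Cd68* alone gave 51.3% of the sum in WT and 57.9% in ΔM, and *Msr1* gave 23.4% and 21.6%. *Axl* gave 13.6% in WT and 8.04% in ΔM. In such bulk libraries, fewer cells that express a gene and less RNA per cell cannot be told apart.

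**Figure D1:**
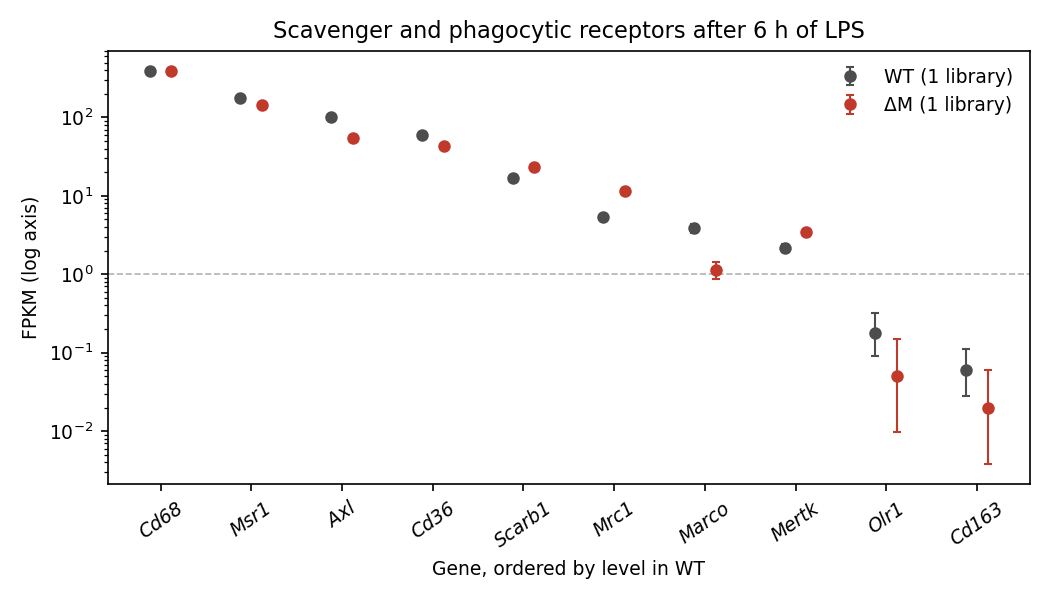
Levels of the 10 receptors in the WT and the ΔM library, as FPKM on a log10 axis, with 1 point per library and approximate 95% Poisson counting intervals. The points run from 387.55 FPKM (*Cd68*, WT) down to 0.02 FPKM (*Cd163*, ΔM). Among the members with a mean of at least 1 FPKM, the libraries lie farthest apart for *Marco*, *Mrc1* and *Axl*.

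*Cd68* encodes macrosialin, a heavily glycosylated protein of late endosomes and lysosomes that is used as a macrophage marker. It was at 387.55 FPKM in WT (381 to 394) and at 389.58 FPKM in ΔM (383 to 397). The ratio of ΔM to WT was 1.01, with a counting interval of 0.98 to 1.03, so that no difference was detectable at this depth. *Cd68* was at place 69 among 22259 protein-coding genes in WT and at place 70 in ΔM. The gene lies on chromosome 11 of mm9 (69477715 to 69479655, minus strand).

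Class A scavenger receptors are trimeric proteins with a collagen-like stalk that bind modified LDL and bacterial surface polymers. *Msr1* encodes the first of them to be described, SR-A. It was at 176.83 FPKM in WT (173 to 181) and at 145.42 FPKM in ΔM (142 to 149), a ratio of 0.822 (0.795 to 0.85). *Msr1* was thus 17.8% lower in the ΔM library, and the intervals of the libraries did not overlap. The log2 ratio was -0.28, and 17.6% of the tested protein-coding genes had a lower one. *Marco* encodes a related receptor that binds bacteria and inhaled particles. It was at 3.86 FPKM in WT (3.4 to 4.37) and at 1.13 FPKM in ΔM (0.874 to 1.44), that is, about 253 and 65.8 fragments. *Marco* was therefore 3.42-fold lower in ΔM (2.59 to 4.55), and its log2 ratio of -1.19 understates this because 1 FPKM was added to a low value. Of the tested protein-coding genes, 0.755% had a lower log2 ratio. The FPKM of *Msr1* was 45.8 times that of *Marco* in WT (40.4 to 52.1) and 129 times in ΔM (101 to 167). *Marco* lies on chromosome 1 (122371115 to 122401661, minus strand) and has 1 annotated transcript.

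*Msr1* lies on chromosome 8 of mm9 (40667054 to 40728032, minus strand), with 3 annotated transcripts. It was the only member found in the published list of TTP sites from PAR-iCLIP after 6 h of LPS, as far as that list could be read. PAR-iCLIP maps contacts of a protein with RNA by crosslinking to incorporated 4-thiouridine. The paper kept only sites above a minimum number of crosslinks that were present in every replicate. Absence from its list therefore does not show that a member was unbound. The sites of *Msr1* are shown because no other member had sequences in that list. All 5 sites matched NCBIM37 (mm9) at their positions, and 3 of them lie in intron 3 of the transcript model with 10 exons. They are written 5′ to 3′ in the sense of the gene with T for U, and capitals mark the listed site.
Msr1 intron 3, chr8:40710910-40710929: ttacaGCATATGTAATTTTATCTTTaaacg
Msr1 intron 3, chr8:40710881-40710900: gtgatGTTTTTGTTTTCCTTTATTTatgta
Msr1 intron 3, chr8:40710861-40710871: atgtatttaTTTCATTCTATaccattctg
Msr1 3′ UTR, chr8:40690433-40690438: tacttttataatAATTTTatatttgaatga
Msr1 3′ UTR, chr8:40690342-40690346: aaaaagcaatgcTTATTtttattctagaa
The last 2 sites lie in the longer of the 2 annotated 3′ UTRs of *Msr1*, at 888 and 980 nt of it, a stretch that is intron 8 in the model with 10 exons. Between 80% and 100% of the bases of each site were A or T. A heptamer UAUUUAU, which TTP is known to prefer, lay across the edge of 2 of the intron sites, and the other 3 windows held none. The gene value of *Msr1* does not separate the transcripts that hold these sites from those that do not, so levels per isoform were not analysed here.

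Class B scavenger receptors cross the membrane at both ends of the protein and handle lipids. *Cd36* encodes a receptor of oxidized LDL and long-chain fatty acids that also takes part in uptake of dying cells. It was at 59.56 FPKM in WT (58.2 to 61.0) and at 43.8 FPKM in ΔM (42.6 to 45.1), a ratio of 0.735 (0.709 to 0.763). *Scarb1* encodes SR-B1, the receptor through which cells exchange cholesterol with HDL. It was at 17.07 FPKM in WT (16.0 to 18.2) and at 23.38 FPKM in ΔM (22 to 24.8), a ratio of 1.37 (1.25 to 1.5). The class B members thus lay on opposite sides of 1, *Cd36* lower and *Scarb1* higher in the ΔM library. The FPKM of *Cd36* was 3.49 times that of *Scarb1* in WT (3.25 to 3.75) and 1.87 times in ΔM (1.75 to 2.0). *Cd36* lies on chromosome 5 (17287508 to 17394777, minus strand) with 4 transcripts. *Scarb1* lies on the same chromosome (125757457 to 125821464, minus strand) with 10 transcripts, so its number of fragments depends on the transcript length that is assumed.

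*Mrc1* encodes the macrophage mannose receptor CD206, an endocytic C-type lectin used as a marker of alternatively activated macrophages. It was at 5.45 FPKM in WT (5.12 to 5.79) and at 11.56 FPKM in ΔM (11.1 to 12.1), that is, about 1030 and 1940 fragments. The ratio of 2.12 (1.97 to 2.29) was the largest among the members with a mean of at least 1 FPKM. The log2 ratio was 0.96, and 1.28% of the tested protein-coding genes had a higher one. *Mrc1* lies on chromosome 2 (14151041 to 14253684, plus strand). *Mir511*, a microRNA gene within *Mrc1*, was listed at 0 in both libraries. With estimated fragment lengths of 198 nt in WT and 200 nt in ΔM, short RNAs may be missed. The 0 therefore does not show that *Mir511* was absent.

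*Cd163* and *Olr1* did not reach the minimum and were left out of the counts. *Cd163* encodes the receptor of haemoglobin bound to haptoglobin. It was at 0.06 FPKM in WT against 0.02 FPKM in ΔM, that is, about 9.34 and 2.77 fragments, and the ratio of 0.333 had an interval of 0.0537 to 1.37. *Olr1* encodes LOX-1, a lectin-like receptor of oxidized LDL known mainly from endothelial cells. It was at 0.18 FPKM in WT against 0.05 FPKM in ΔM, that is, about 11.6 and 2.87 fragments, and the ratio of 0.278 had an interval of 0.0478 to 1.06. Both were lower in ΔM by value, yet a difference was not detectable at this depth. *Cd163* (124254669 to 124280545, plus strand) and *Olr1* (129435264 to 129457183, minus strand) lie on chromosome 6.

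*Axl* and *Mertk* encode receptor tyrosine kinases of the TAM family, which bind GAS6 and, for MERTK, protein S on the surface of dying cells. *Axl* is known as the inflammatory member of the pair and *Mertk* as the one of resting and tolerant macrophages. *Axl* was at 102.47 FPKM in WT (101 to 104) and at 54.06 FPKM in ΔM (52.8 to 55.4). It was 1.9-fold lower in ΔM (1.84 to 1.95), with a log2 ratio of -0.91, and 1.6% of the tested protein-coding genes had a lower log2 ratio. *Mertk* was at 2.15 FPKM in WT (1.92 to 2.4) and at 3.48 FPKM in ΔM (3.17 to 3.81), a ratio of 1.62 (1.4 to 1.87). The related kinases thus lay on opposite sides of 1. The FPKM of *Axl* was 47.7 times that of *Mertk* in WT (42.7 to 53.4) and 15.5 times in ΔM (14.1 to 17.1).

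*Axl* lies on chromosome 7 (26542292 to 26573724, minus strand), as does the deleted gene *Zfp36* (29161803 to 29164274), 2.59 Mb away. The 20 tested protein-coding genes between them ran from -0.76 to 5.0 in log2 ratio around a median of 0.18, and 0 were as low as *Axl*. The gene at 5.0 was among the 10 tested protein-coding genes beyond 3 in either direction. The 8 tested protein-coding genes within 200 kb of *Axl* had a median log2 ratio of 0.06. Whether the place of *Axl* near the deleted gene had a part in its level was not tested. *Mertk* lies on chromosome 2 (128524692 to 128628630, plus strand), and the annotated RNA genes *Gm14011* and *SNORA25* within it were listed at 0 in both libraries. For the small RNA gene *SNORA25*, as for *Mir511*, the 0 does not show absence.

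Of the 8 members with a mean of at least 1 FPKM, *Scarb1*, *Mertk* and *Mrc1* were higher in ΔM (the plot of ratios). *Msr1*, *Cd36*, *Axl* and *Marco* were lower, and *Cd68*, at a ratio of 1.01 (0.98 to 1.03), was not detectably apart. The median log2 ratio of the 8 members was -0.14. A difference of at least 2-fold on the log2 scale was reached by 1 member, *Marco*, which was lower. On the same scale, 9.31% of all genes tested were at least 2-fold apart (5.69% higher and 3.61% lower in ΔM), and 2.51% of protein-coding genes (1.19% higher and 1.32% lower). Without the added 1 FPKM, *Mrc1* also passed 2-fold, which made 2 members, beside 12.2% of all genes and 5.56% of protein-coding genes on that scale. With 1 FPKM added, 3 members were at least 1.5-fold apart, with *Mrc1* higher and *Axl* and *Marco* lower. The shares at 1.5-fold were 18.7% of all genes (11.2% higher and 7.51% lower) and 10.2% of protein-coding genes (4.83% higher and 5.36% lower). With so few members and no replicates, these counts describe 2 libraries. The distribution of protein-coding ratios is shown with the members marked in it.

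**Figure D2:**
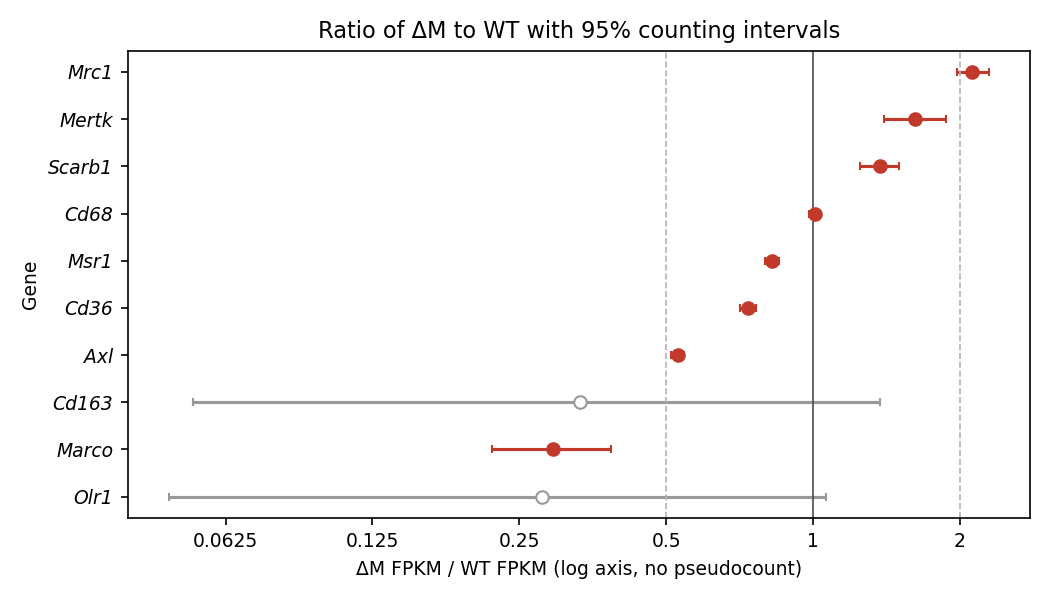
Ratio of ΔM to WT FPKM for each receptor on a log2 axis, with approximate 95% counting intervals a solid line at equal levels and dashed lines at 2-fold; open symbols are the members under 1 FPKM. *Marco* (0.293) lies farthest below the line among members with a mean of at least 1 FPKM and *Mrc1* (2.12) farthest above it, while the intervals of *Cd68*, *Cd163* and *Olr1* cross the line.

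**Figure D3:**
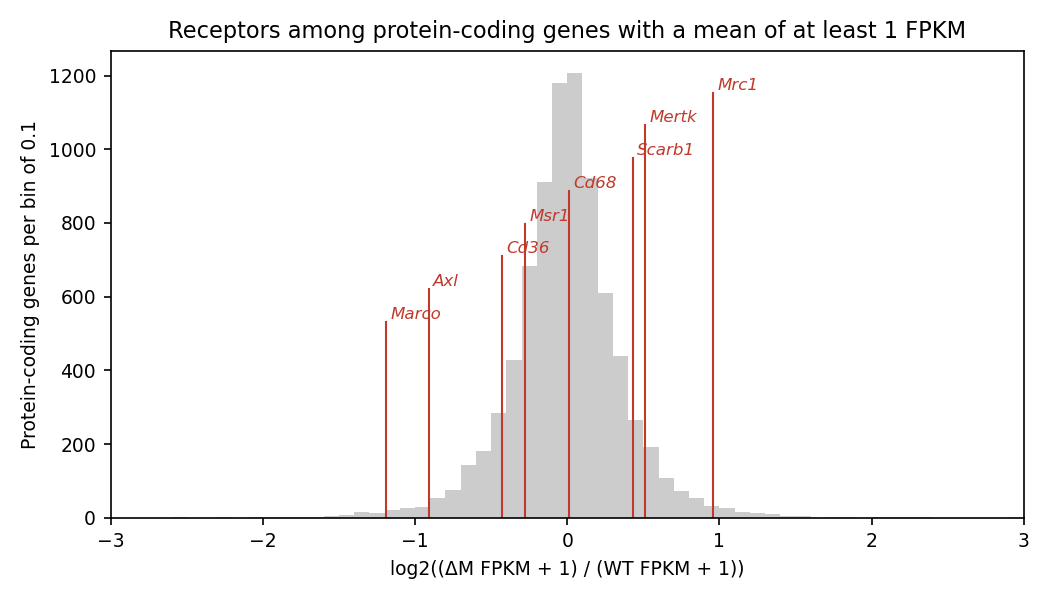
Distribution of log2((ΔM + 1)/(WT + 1)) over the 8078 tested protein-coding genes, with the 8 tested members marked; 10 genes beyond 3 in either direction are not drawn. Most genes lie close to 0, and *Marco* (-1.19), *Axl* (-0.91) and *Mrc1* (0.96) lie in the tails.

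Genes that work beside these receptors were described from lists set by function. None of the 37 tested genes in these 7 lists was 2-fold apart (0 higher, 0 lower). The shares at 2-fold were 9.31% of all genes tested and 2.51% of protein-coding genes. At 1.5-fold, 7 were apart (5 higher, 2 lower), beside 18.7% of all genes and 10.2% of protein-coding genes. With so few genes and no replicates, these counts are descriptions only. Of 15 other scavenger receptors and related lysosomal proteins, 10 were tested, 6 above and 4 below a log2 ratio of 0, with a median of 0.17. The most abundant were the lysosomal membrane proteins *Lamp1*, at 201.69 FPKM in WT against 210.46 FPKM in ΔM, and *Lamp2*, at 91.36 and 85.07 FPKM. They were followed by *Cxcl16*, a chemokine that also serves as a receptor of oxidized LDL, at 84.28 FPKM in WT against 76.15 FPKM in ΔM. Past 1.5-fold were *Cd5l*, a secreted scavenger protein of macrophages, at 27.67 FPKM in WT against 50.62 FPKM in ΔM, and *Stab1*, an endocytic receptor, at 22.68 and 37.7 FPKM. *Cd5l* and *Stab1* were singled out after their values were seen, as were the other genes named here as 1.5-fold apart that are not among the 3 most abundant of their list.

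Of 11 C-type lectin receptors, 6 were tested, 3 above and 3 below a log2 ratio of 0, with a median of 0.03. *Clec4e* encodes Mincle, a receptor of mycobacterial glycolipids and of dead cells. It was at 621.82 FPKM in WT against 360.02 FPKM in ΔM, a log2 ratio of -0.79, and was the only gene of the list past 1.5-fold. *Clec12a*, an inhibitory receptor, was at 210.24 FPKM in WT against 203.67 FPKM in ΔM. *Clec4d*, which pairs with Mincle, was at 132.82 FPKM in WT against 141.37 FPKM in ΔM.

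Of 13 genes of apoptotic cell uptake, 5 were tested and 0 were 1.5-fold apart, with 4 above and 1 below a log2 ratio of 0 and a median of 0.22. The bridging protein *Mfge8* was at 25.3 FPKM in WT against 33.76 FPKM in ΔM. *Gas6*, the ligand of *Axl* and *Mertk*, was at 13.44 FPKM in WT against 16.81 FPKM in ΔM. *Elmo1*, which acts in engulfment inside the cell, was at 26.94 and 26.62 FPKM. *Tyro3*, named after its value was seen as the remaining TAM kinase, did not reach the minimum, at 0.34 FPKM in WT against 0.33 FPKM in ΔM. Among the TAM receptors, *Axl* thus had the highest FPKM in both libraries. The "don't eat me" signal *Cd47* was at 207.25 FPKM in WT against 202.49 FPKM in ΔM, and its receptor *Sirpa* was at 177.17 and 164.33 FPKM.

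Of 6 transcription factors known to act on genes of these receptors, 5 were tested, 2 above and 3 below a log2 ratio of 0, with a median of -0.17. The oxysterol receptor LXRβ (*Nr1h2*) was at 67.23 FPKM in WT against 51.75 FPKM in ΔM. The oxidative stress factor *Nfe2l2* was at 31.45 and 24.32 FPKM, and the glucocorticoid receptor *Nr3c1* was at 24.43 and 21.6 FPKM. Past 1.5-fold was LXRα (*Nr1h3*), at 7.88 FPKM in WT against 13.08 FPKM in ΔM. Of 3 genes of receptor shedding, *Adam17*, a protease that cuts receptors off the cell surface, was at 156.25 FPKM in WT against 97.78 FPKM in ΔM, past 1.5-fold. Its partner *Rhbdf2* was at 56.48 and 49.5 FPKM, and the protease *Adam10* was at 3.76 FPKM in WT against 5.18 FPKM in ΔM. The median log2 ratio of these 3 genes was -0.19.

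All 6 genes of the LPS response were expressed in both libraries, with a median log2 ratio of 0.44, 4 above and 2 below 0. The cytokine *Il1b* was at 874.57 FPKM in WT against 740.58 FPKM in ΔM. *Irg1*, which encodes the enzyme that makes itaconate, was at 491.03 and 368.57 FPKM. *Nos2*, the inducible nitric oxide synthase, was at 277.41 FPKM in WT against 366.79 FPKM in ΔM. Past 1.5-fold were the cytokine *Tnf*, at 161.07 FPKM in WT against 306.17 FPKM in ΔM, and *Ptgs2*, the inducible cyclooxygenase, at 112.35 and 207.84 FPKM.

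**Figure D4:**
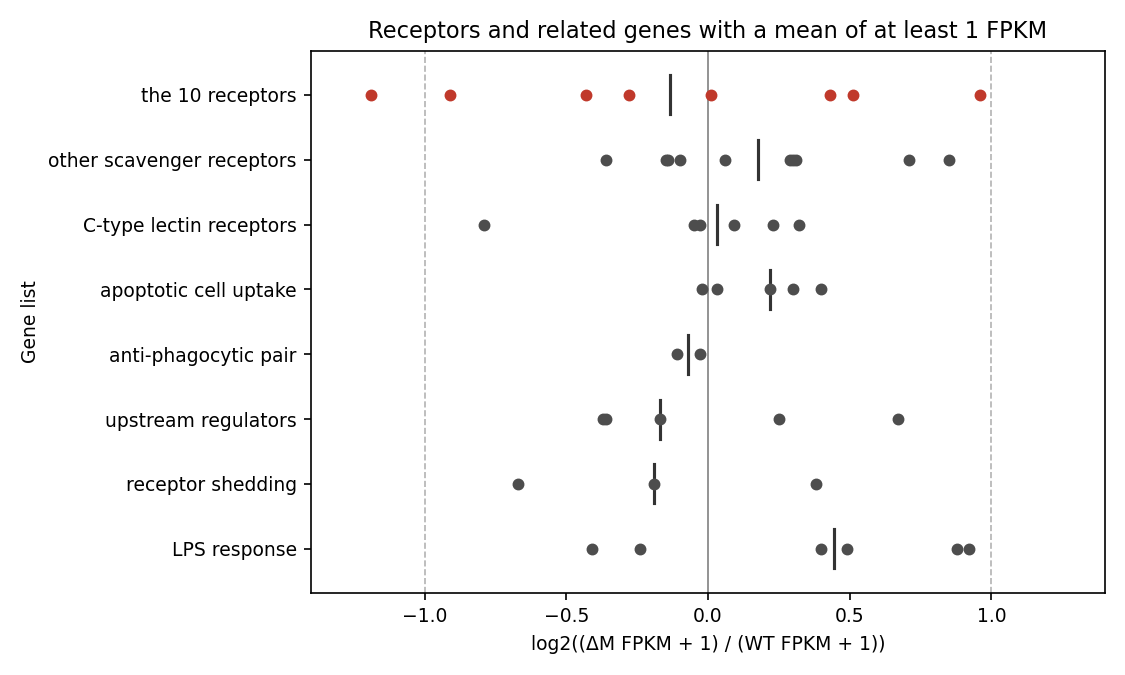
log2((ΔM + 1)/(WT + 1)) of the tested members and of the tested genes of 7 lists of related function, with 1 point per gene a bar at each list's median and dashed lines at 2-fold. The medians run from -0.19 (receptor shedding) to 0.44 (LPS response), and *Marco* is the only point past 2-fold.

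Markers of other cell types were low apart from *S100a8* and, at a lower level, *Kdr*. The 5 dendritic cell markers summed to 0.51 FPKM in WT against 0.45 FPKM in ΔM, and those of T and NK cells, B cells and erythroid cells each summed to less than 1 FPKM. Markers of neutrophils and their progenitors summed to 50.8 FPKM in WT against 100 FPKM in ΔM, nearly all of it *S100a8*. *Camp* was at 0 FPKM in WT against 0.41 FPKM in ΔM, and *Mpo* was at 0.09 and 0.05 FPKM. *Ly6g*, *S100a9*, *Ngp* and *Elane* were listed at 0 in both libraries. *S100a8* is also known from LPS-treated macrophages. Stromal and endothelial markers summed to 6.16 FPKM in WT against 3.57 FPKM in ΔM, mainly *Kdr* at 5.59 and 3.23 FPKM. *S100a8* was higher in the ΔM library, as *Mrc1* and *Mertk* were, and *Kdr* was lower, as *Axl* and *Marco* were. Their part in the levels of the receptors was not tested.

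The 3′ UTRs of the members were searched for AUUUA, the core of AU-rich elements, and for UAUUUAU, which holds AUUUA within it, in the sense of the gene and in the longest annotated 3′ UTR (the map of 3′ UTRs). *Cd36*, *Mrc1* and *Mertk* held UAUUUAU, in 5 places in all. These are shown because they are the sites closest to the known preference of TTP among the receptors, in mm9, 5′ to 3′ with T for U and the heptamer in capitals.
Cd36, chr5:17288995-17289001, minus strand: gcagatataTATTTATttgtaaata
Cd36, chr5:17288143-17288149, minus strand: acagtatgtTATTTATtgtatttta
Mrc1, chr2:14253314-14253320, plus strand: tgagaactgTATTTATccacatgta
Mrc1, chr2:14253496-14253502, plus strand: aaataatgcTATTTATtatctaatt
Mertk, chr2:128628545-128628551, plus strand: tacataataTATTTATttaaagaga
*Mrc1* held 5 AUUUA in 882 nt, including those within the heptamers, and 5.16% of the 3′ UTRs of similar length held at least as many. *Cd36* held 6 AUUUA in 1660 nt, and 14.5% of 3′ UTRs of similar length held at least as many. *Mertk* held 2 AUUUA in 1227 nt, which overlap each other in the window shown. UAUUUAU was in 19.8% of the 3′ UTRs similar in length to that of *Mrc1*, in 33.5% for *Cd36* and in 27.4% for *Mertk*. Over all 19907 genes with an annotated 3′ UTR, 61.4% held AUUUA and 23.9% held UAUUUAU.

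*Msr1* and *Olr1* each held 5 AUUUA and *Cd163* held 1, without UAUUUAU. *Axl*, *Scarb1*, *Cd68* and *Marco* held neither motif in their longest 3′ UTR. For the short 3′ UTRs of *Cd68* (158 nt) and *Marco* (121 nt), 20.3% and 16.1% of the 3′ UTRs of similar length held AUUUA. For *Axl* (1389 nt) and *Scarb1* (779 nt) the shares were 80.1% and 62.4%. Set beside the levels, the members with UAUUUAU lay on both sides of 1, with *Mrc1* at 2.12, *Mertk* at 1.62 and *Cd36* at 0.735 for the ratio of ΔM to WT. Those without AUUUA also lay on both sides, with *Scarb1* at 1.37, *Cd68* at 1.01, *Axl* at 0.528 and *Marco* at 0.293. A match of letters is not a binding site, and the absence of one in these 3′ UTRs says nothing about TTP.

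**Figure D5:**
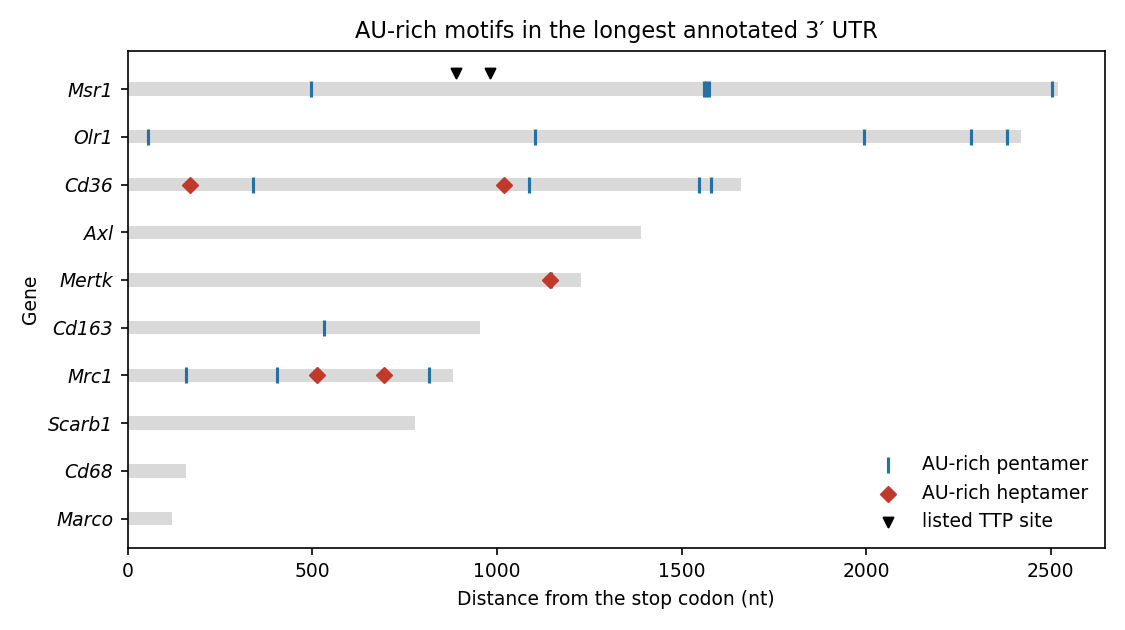
Longest annotated 3′ UTR of each receptor drawn to scale in nt from the stop codon, with the AU-rich pentamer (AUUUA outside a heptamer, ticks) and heptamer (UAUUUAU, diamonds) marked; triangles mark the TTP sites of *Msr1*. On *Mertk* the diamond covers the tick of an overlapping pentamer. The heptamers lie in *Cd36*, *Mrc1* and *Mertk*, and *Axl*, *Scarb1*, *Cd68* and *Marco* carry no mark.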

How the data were processed

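Control RNA-Seq of LPS-treated, 4sU-labeled BMDMs was analysed in 2 libraries, 1 per genotype. After rRNA depletion and fragmentation, the authors aligned trimmed reads to mm9 by Segemehl and discarded those without a unique position. FPKM per Ensembl gene, rounded to 2 decimals, were deposited as calculated by Cufflinks, so reads shared by similar genes are not included and isoforms are not separated. FPKM are not counts and there is 1 library per genotype, so no count model and no test was used.

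The 10 members, and the lists of related genes and markers, were chosen with earlier results of these data known. The named genes are all members, *Zfp36*, the genes of each list that are 2-fold apart and otherwise the 3 with the highest mean FPKM. Other genes are named as chosen after their values were seen, or as neighbours or markers. Log2 ratios used a pseudocount of 1 FPKM and a minimum mean of 1 FPKM. The fragments behind a value were estimated from the steps between low FPKMs of single-transcript genes and the median transcript length, with a search tested on simulated data. The steps gave fragment lengths of 198 nt in WT and 200 nt in ΔM, and 92.3% and 92.4% of the low values used were whole multiples of 1 fragment, within 0.02 fragments plus the 0.005 FPKM of rounding. Evenly spread values would be whole within that tolerance in 17.6% and 16.0%. Intervals are 95% Poisson intervals and were combined for ratios.

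Gene positions, transcripts and 3′ UTRs came from GENCODE M1 on NCBIM37 (mm9), in which 37039 of the 37451 identifiers were found. 3′ UTRs of similar length are those within 25% of a member's. TTP site positions and letters were taken from the published list, and no binding score was used. The alternatives covered the pseudocount, centring, scaling, minimum, fold, isoforms and, added after the data were seen, transcript length. The tools were pandas 2.3.3, scipy 1.17.1 and numpy 2.4.6 in Python 3.11.15, with figures by matplotlib 3.10.9.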

Additional observations from a re-analysis of the deposited data

How the results depend on the processing

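No paired analysis was possible because each genotype had 1 library, which also means that none could be omitted in turn. The number of members at least 2-fold apart was 1. It was 2 with a pseudocount of 0.1 FPKM, where *Mrc1* joined *Marco* with a log2 ratio of 1.07. It was 0 with a minimum mean of 10 FPKM, which leaves 5 members without *Marco* and *Mrc1*, and 3 at 1.5-fold. The number of genes of the related lists was 0 at 2-fold and 7 at 1.5-fold (5 higher, 2 lower). The median log2 ratio of the members stayed between -0.16 and -0.11. A pseudocount of 0.1 FPKM moved the log2 ratio of *Marco* to -1.69, *Mertk* to 0.67, *Cd163* to -0.42 and *Olr1* to -0.90, since less is added to low values. Centring on the median of all genes moved *Cd68* from 0.01 to -0.02, too close to 0 to give a direction. With the longest coding transcript, an alternative chosen after seeing the data, the interval of the *Olr1* ratio was 0.0875 to 0.726 and no longer held 1, whereas with the shortest it was 1.43e-07 to 53.8. With the shortest, that of *Scarb1* was 1.02 to 1.84 and that of *Axl* 0.48 to 0.58. Scaling to a fixed sum over protein-coding genes changed the unit of all 20 member levels (*Cd68* to 1800 in WT and 1810 in ΔM) by construction. Depth limits *Cd163* and *Olr1* most. Their ΔM levels of 0.02 and 0.05 FPKM, rounded to 2 decimals, cannot be told from what 3 fragments are worth, 0.0216 and 0.0523 FPKM.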

Other observations

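*Olr1* lies in a cluster of lectin-like receptor genes on chromosome 6, and its low level was shared by most but not all genes near it. Of 18 other protein-coding genes within 250 kb of *Olr1*, 5 had a mean of at least 1 FPKM. *Clec12a* was at 210.24 FPKM in WT against 203.67 FPKM in ΔM, and the activation antigen *Cd69* was at 74.04 and 64.53 FPKM. The β-glucan receptor *Clec7a*, the neighbour of *Olr1* on the same strand, was at 3.16 FPKM in WT against 4.19 FPKM in ΔM. *Gabarapl1*, a gene of autophagy, was at 4.59 and 3.99 FPKM, and *Klrk1*, which encodes the receptor NKG2D, was at 2.65 and 2.59 FPKM. The genes of this cluster were chosen by position after the level of *Olr1* was seen, and those named are the 5 that reached the minimum.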
